A study of Neurospora crassa with 24 samples.

Results

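Conidia of Neurospora crassa, the asexual spores of this filamentous ascomycete, were germinated on maple sap medium (MSM), and the RNA found at 360 min was compared with the RNA found at 15 min, across the whole sampled course. MSM is maple sap, a natural sugar source low in nitrogen, set with agar. The comparison rests on 6 of the 24 libraries of the series, 3 from each time, and on 8988 of the 9730 genes in the deposited table. A gene was included where its level and the lower 95% bound of that level were above 0 at both times, and its change was the log2 ratio of its level at 360 min to its level at 15 min less the median of that ratio over all genes included.

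All libraries came from the mat A strain FGSC2489 (mat A is 1 of the mating types), plated on cellophane over the medium and kept at 25°C in constant white light. The spores had been harvested from cultures on Bird medium (BM), a defined synthetic medium rich in carbon and nitrogen, so the 15 min samples on MSM hold conidia that had been formed on BM. Each replicate pooled tissue from several plates, and the replicates were collected at separate times. The sampling times of 15, 120, 240 and 360 min were set by the morphology of spores on BM, where they stood for fresh spores, polar growth, a doubled long axis and first hyphal branching, and the same times were then used on MSM. A plate holds spores at different stages of germination, so a lower level of a transcript can be less RNA per cell or fewer cells that carry it, and these cannot be told apart here.

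A dormant conidium carries stored transcripts made while the spore was formed. On wetting and feeding it swells, resumes translation and respiration, sends out a germ tube and extends it into a hypha that branches and fuses with others. Nitrogen-poor conditions are known to release nitrate, purine and amide catabolism from repression in this fungus, and the cross-pathway control activator encoded by cpc-1 is known to raise amino acid synthesis genes when amino acids run short.

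The deposited values are ratios: a gene's level at each time on a medium is given relative to its own lowest time, which is set to 1, with a 95% interval from the authors' fit of the 3 pooled replicates. Levels can be compared between times for 1 gene but not between genes. In the text 4 levels are always those at 15, 120, 240 and 360 min, and a change is the centred log2 change from 15 to 360 min with its SE, taken from the interval widths. Centring removed a shift of 0.13 shared by the median gene. A gene was called higher or lower where a two-sided z test gave a Bonferroni adjusted p below 0.01 over all genes tested. Because values per replicate were not used here, the intervals may not hold the spread between replicates, and every call below refers to the error in those intervals.

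Most of the transcriptome moved. Of the 8988 genes, 3747 were higher and 3631 lower at 360 min, which is 82.1% called in either direction, 41.7% higher and 40.4% lower, and 1610 were not called. A change of at least 2-fold with a call was found for 2182 genes higher and 2116 lower, 47.8% in either direction, 24.3% higher and 23.5% lower. At least 8-fold changes were found for 404 genes higher and 454 lower, and at least 32-fold changes for 51 and 50. Since 82.1% of all genes were called, a call by itself says little of any single gene, and the sizes, the counts within gene groups and the order over time are described below. Errors were small against these sizes: 0.029 was the median SE of a change and 0.295 its 90th percentile.

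The course was gradual for many genes and late for others. Levels at all 4 times were available for 8855 genes. Of the 3747 higher genes, 3071 (82%) were lowest at 15 min and 2704 (72.2%) were highest at 360 min. In 1899 of them (50.7%) the centred level moved upward in each of the 3 intervals. Of the 3631 lower genes, 2971 (81.8%) were highest at 15 min, 2793 (76.9%) were lowest at 360 min, and 1964 (54.1%) moved downward in each interval. Among 2298 genes that ended within 0.5 of no change, 86 had been at least 2-fold above their 15 min level at 120 or 240 min and 142 at least 2-fold below it.

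The largest changes belonged in part to genes with no symbol in the reference. NCU09165 had levels of 1, 34.8, 261 and 743, a change of 9.41 ± 0.25, and NCU09173 had levels of 1, 1.42, 37.7 and 587, a change of 9.07 ± 0.70. NCU09406 reached 367 at 360 min. These levels were at their lowest at 15 min and highest at 360 min, but the wide error of NCU09173 ended its call when every SE was taken as 3 times as large. In the other direction NCU04697 had levels of 1082, 11.9, 3.37 and 1, a change of -10.21 ± 0.26, and on BM the same gene changed by -1.94 ± 0.021. NCU07044 had levels of 165, 7.35, 1.66 and 1 and NCU00973 had levels of 136, 1.4, 1.13 and 1. In NCU04697, NCU07044 and NCU00973 most of the loss fell between 15 and 120 min.

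Among genes with a symbol, the leading rise was that of nit-6, the nitrite reductase, with levels of 1, 16.9, 81.2 and 147 and a change of 7.07 ± 0.043. The L-amino acid oxidase gene lao had levels of 1, 4.81, 28.9 and 76.8 and the chitinase gene chit-1 levels of 1, 6.07, 16.8 and 56.5. The catalytic subunit gene of protein kinase A, pkac-1, had levels of 1, 3.45, 15.3 and 42, a change of 5.26 ± 0.070. These rises ran through the whole course, each time above the one before. Of the 15 leading genes in this direction, nit-6, nit-10 and nit-3 belong to nitrate use, rpn-3 to the proteasome, vma-13 to the vacuolar ATPase, emp-1 and fba to glycolysis and gsy-1 to glycogen synthesis.

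The leading falls with a symbol were those of poi-2 and app, both known as abundant transcripts of sexual tissue in this fungus. The levels of poi-2 were 86.1, 16.8, 5.52 and 1, a change of -6.56 ± 0.051. Those of app were 57.3, 16.7, 5.46 and 1, a change of -5.97 ± 0.080. Both lost transcript in every interval. Others lost most of their level by 120 min: mig-2 had levels of 34, 2.4, 1 and 1.32, the glutathione transferase gene gst-2 levels of 35.3, 1.61, 1 and 1.65, and aod-3, named as an alternative oxidase, levels of 28.7, 1, 1.33 and 1.2. From 120 min on these levels lay between 1 and 2.4, and mig-2 and gst-2 fell further until 240 min. Amino acid and pyrimidine genes (lys-3, aro-7 and pyr-3) also stood among the 15 leading falls, and their loss was spread over the course. The neighbouring genes stk-21 and fkr-4 on chromosome I fell together, by changes of -4.85 ± 0.33 and -4.09 ± 0.012.

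**Figure D1:**
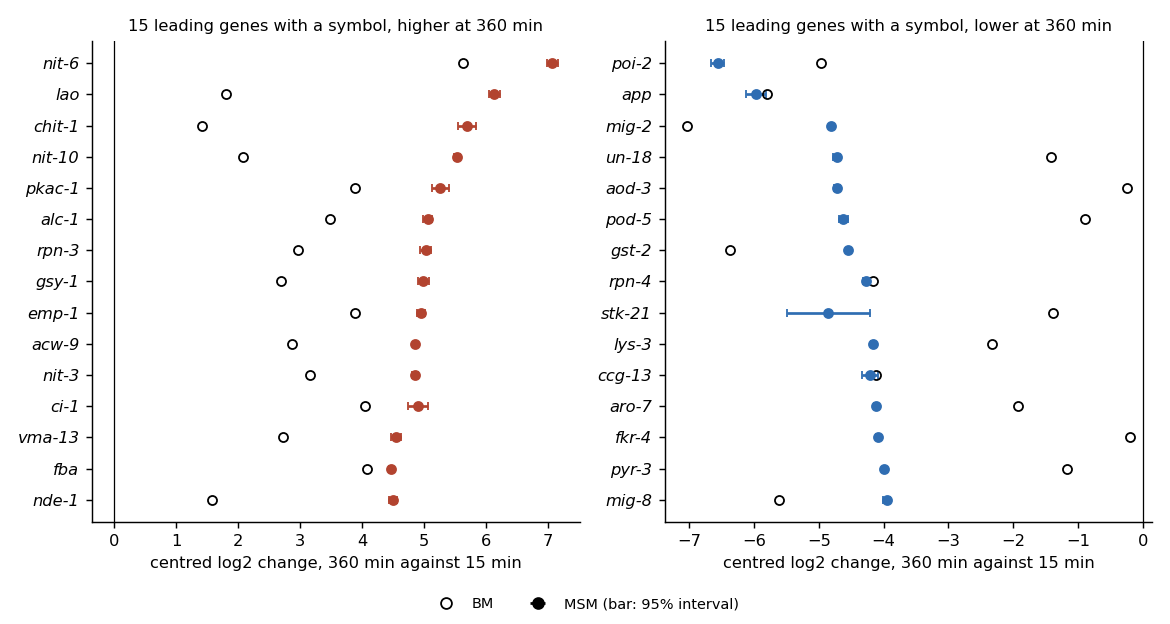
The 15 genes with a symbol that led in each direction on MSM, ranked by the bound of the centred log2 change nearest 0. Filled points give the change on MSM with its 95% interval and open points the change of the same gene on BM; nit-6 stood at 7.07 on MSM and poi-2 at -6.56.

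Gene groups were described with 47 lists of symbols covering 787 genes, each read against the shares over all genes given above. In the plot of list members the proteasome, the vacuolar ATPase, glycolysis and nitrogen source genes lay mostly to the right of 0, and amino acid, nucleotide, ribosomal protein and mitochondrial gene expression genes lay to the left.

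**Figure D2:**
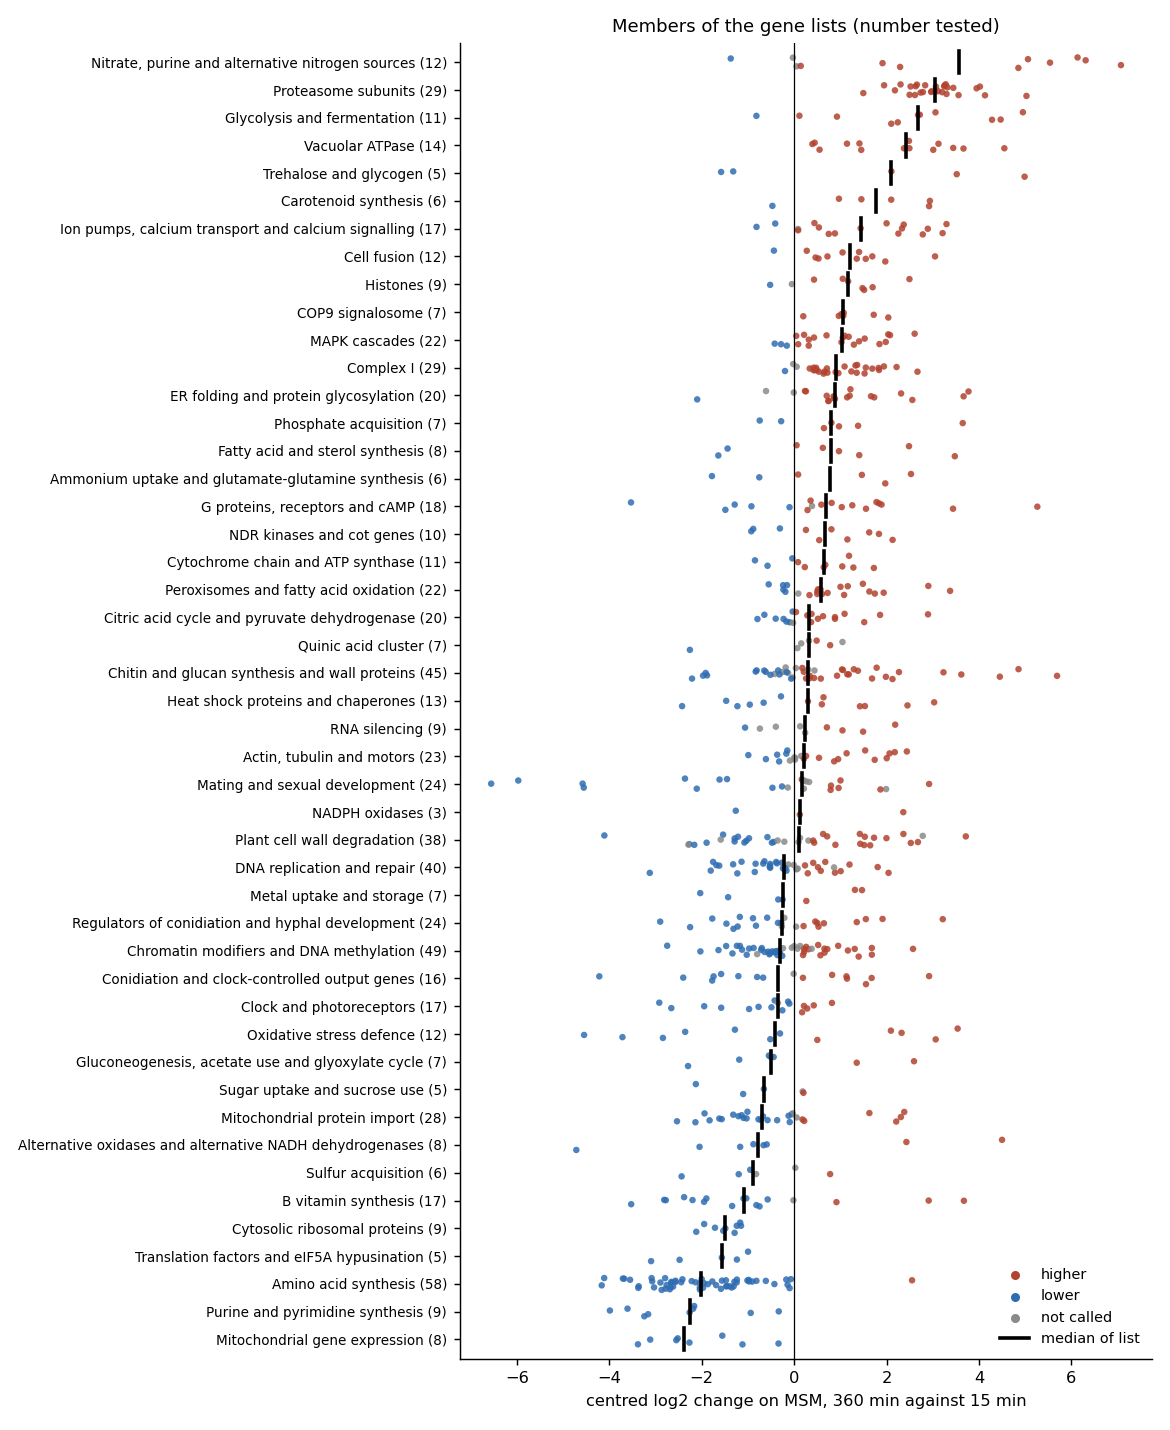
Centred log2 change on MSM from 15 to 360 min for each tested member of 47 gene lists (points, coloured by call), with the median of each list (black bar) and the number tested in parentheses. List medians ran from -2.39 for mitochondrial gene expression to 3.57 for nitrate and alternative nitrogen sources, beside a median of 0 over all genes by construction.

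Genes for nitrogen sources other than ammonium and glutamine rose farthest as a list. Its members include nit-6, nit-10, NCU02361 and NCU01258, which the study reports as rising on MSM, so this rank is a description. Of 12 members, 9 were called higher and 1 lower, 8 of them at least 2-fold higher, with a median change of 3.57. The rise was not confined to MSM: on BM 7 of the 12 were higher and 5 lower, with a median of 1.08. Nitrate enters through the transporter encoded by nit-10, whose levels were 1, 4.37, 20.9 and 50.8, and is reduced by the nitrate reductase encoded by nit-3, whose levels were 1, 4.51, 17 and 31.6. NCU02361, which the study names as formamidase, had levels of 1, 10.1, 38.4 and 86.7, and alc-1, the allantoicase of purine breakdown, had levels of 1, 6.15, 26.7 and 36.5. All of these were lowest at 15 min and highest at 360 min. Xanthine dehydrogenase, encoded by xdh-1, was level until 120 min and then rose to a change of 1.91 ± 0.018. The cyanate lyase gene NCU01258 took another course, with levels of 2.31, 1.24, 1 and 12.4: it fell until 240 min and rose only afterwards, to a change of 2.29 ± 0.0082.

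The regulators of these genes did not move with them. The GATA factor gene nit-2, which activates nitrogen catabolism, changed by -0.03 ± 0.0098, and its repressor gene nmr by 0.05 ± 0.011, and neither passed the test (0.10 and 0.18 uncentred, both then called higher). The pathway-specific activator gene nit-4 fell, with levels of 2.37, 1.32, 1.04 and 1. In ammonium assimilation the glutamine synthetase genes parted. The level of gln-2 rose by 2.53 ± 0.0093, whereas gln-1 changed by -1.78 ± 0.0040. Glutamate synthase, en(am)-2, rose by 1.97 ± 0.0069 and the NAD-dependent glutamate dehydrogenase gene gdh-1 by 1.47 ± 0.026.

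Nearly all genes of amino acid synthesis fell. Of 58 members 57 were lower and 1 higher, and 47 were at least 2-fold lower, with a median change of -2.02. On the uncentred scale 53 of the 58 were lower. The lysine gene lys-3 had levels of 16.4, 7.32, 3.66 and 1. The aromatic genes aro-7 and aro-8 changed by -4.11 ± 0.016 and -3.71 ± 0.018, and the histidine gene his-6 by -3.68 ± 0.014. The tryptophan synthase gene trp-3 had levels of 10.7, 5.08, 3.05 and 1. Of the 58 genes, 56 were lowest at 360 min and 44 highest at 15 min, and the list median stood at -0.51 at 120 min, -0.90 at 240 min and -2.02 at 360 min, so that the last interval held the larger part of the loss. The gene of the activator of this system, cpc-1, fell with the list, with levels of 4.01, 2.61, 1.8 and 1, as did cpc-3, the counterpart of the yeast sensor kinase Gcn2, with a change of -1.24 ± 0.015. The exception was ilv-5, an isoleucine-valine gene, whose levels were 1.12, 1, 1.46 and 7.19 and whose change was 2.55 ± 0.041.

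Genes of nucleotide and vitamin synthesis mostly took the same direction. All 9 purine and pyrimidine genes were lower, 7 of them at least 2-fold, with a median change of -2.26. The pyrimidine gene pyr-3, which encodes the first steps of the pathway, had levels of 14.5, 9.9, 3.98 and 1, and the purine gene ad-7 had levels of 11.1, 6.51, 3.33 and 1. The list was near its starting level at 120 min, with a median of -0.23, and all 9 genes were lowest at 360 min. Of 17 genes for B vitamins 13 were lower and 3 higher. The pyridoxine genes pdx-1 and pdx-2 changed by -3.53 ± 0.0054 and -2.81 ± 0.0073. The riboflavin gene rib-3 went the other way, with levels of 1, 2.3, 11 and 14. In sulfur acquisition cys-11, which encodes ATP sulfurylase, fell by a change of -2.44 ± 0.0064, and the sulfate permease gene cys-14 had levels of 1.06, 4.82, 1 and 1.18, a peak at 120 min that had passed by 240 min.

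Ribosomal protein genes as a list fell mostly after 240 min. In each translation gene whose levels are given below, the level at 240 min was already lower than at 120 min. All 9 cytosolic ribosomal protein genes were at least 2-fold lower at 360 min, with changes from -2.12 to -1.15 and a median of -1.49. Their list median was 0.19 at 120 min and 0.01 at 240 min. The levels of crp-4 were 3.97, 3.95, 3.03 and 1 and those of cyh-2, which encodes the ribosomal protein that determines cycloheximide resistance, were 2.16, 2.52, 2.16 and 1. All 9 were lowest at 360 min. All 5 translation factor and hypusination genes were lower as well: tef-1, for EF-1α, had levels of 2.7, 3.05, 2.34 and 1, and cot-3, for EF-2, had levels of 2.16, 2.69, 2.17 and 1. Deoxyhypusine synthase, which modifies eIF5A, is encoded by dys-1, and its levels of 7.81, 5.51, 2.52 and 1 fell from the start. The ribosome-associated RACK1-like protein gene cpc-2 changed by -1.49 ± 0.0029.

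Transcripts of proteasome genes moved opposite to those of translation genes. All 29 proteasome subunit genes were at least 2-fold higher, with changes from 1.50 to 5.03 and a median of 3.05, and all 29 were lowest at 15 min and highest at 360 min. The list median was 1.53 at 120 min, 2.38 at 240 min and 3.04 at 360 min among genes with all 4 levels. By position in the complex the values were alike. The 13 genes of the core particle (pca and pcb) had a median change of 3.05, the 5 regulatory ATPases (rpt) 3.07 and the 11 other regulatory subunits (rpn) 2.98. These parts were set after the values were seen. The regulatory subunit gene rpn-3 had levels of 1, 4.52, 14.7 and 35.7 and the core subunit gene pca-5 levels of 1, 5.38, 11.4 and 19.2. The gene named rpn-4, whose yeast namesake encodes an activator of proteasome genes, fell throughout, with levels of 17.6, 8.45, 2.62 and 1. All 7 COP9 signalosome genes were also higher, with a median change of 1.06 and a largest change of 2.04 ± 0.043 for csn-4.

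The vacuolar ATPase pumps protons into the vacuole and is built of a soluble catalytic sector, V1, and a membrane sector, V0. All 14 of its genes were higher, 11 at least 2-fold, with a median change of 2.43. The sectors did not overlap. The 8 V1 genes had changes from 2.38 to 4.55, and the 6 V0 genes changes from 0.39 to 1.45. This split was made after the values were seen. The V1 gene vma-13 had levels of 1, 6.81, 15 and 25.6, and the V0 gene vph-1 levels of 1.13, 1, 1.24 and 1.68. V1 genes thus stood above V0 genes in every pair, and all 14 genes were highest at 360 min.

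Genes of carbon metabolism were divided. In glycolysis and fermentation 10 of 11 genes were higher and 1 lower, 8 at least 2-fold higher, with a median change of 2.68. The aldolase gene fba had levels of 1, 15, 26.3 and 24.2, and the phosphoglycerate kinase gene pgk levels of 1, 10.5, 28.1 and 21. Glyceraldehyde phosphate dehydrogenase, gpd-1, had levels of 1, 4.92, 7.17 and 4.7. These reached their top at 240 min, and the list median was already 2.38 at 120 min, so this group rose earlier than the groups above. In contrast, emp-1 and the glucose phosphate isomerase gene gpi-1 were highest at 360 min, with changes of 4.95 ± 0.030 and 2.72 ± 0.023. Pyruvate decarboxylase, cfp, was the member that fell, by a change of -0.82 ± 0.012.

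In gluconeogenesis and acetate use 5 of 7 genes were lower. The isocitrate lyase gene acu-3 of the glyoxylate cycle had levels of 4.49, 3.25, 2.17 and 1. The fructose bisphosphatase gene fbp-1, in contrast, had levels of 1, 2.36, 2.76 and 6.61, a change of 2.59 ± 0.041. Reserve carbohydrate genes rose at the synthesis of glycogen: gsy-1, for glycogen synthase, had levels of 1, 4.4, 11.1 and 34.7, and gnn, for the glycogen primer glycogenin, had levels of 1, 7.21, 9.1 and 12.5. Of the trehalase genes, tre-1 fell, with levels of 3.98, 4.29, 1 and 1.75, and tre-2 rose, with levels of 1.05, 1, 1.9 and 4.96. Trehalose is a storage sugar of conidia, and tre-1 was retained until 120 min before its fall. The invertase gene inv, whose product splits sucrose, had levels of 5.06, 4.81, 1 and 1.27, likewise retained until 120 min and then reduced. The glucose transporter gene hgt-1 followed a similar course, with levels of 2.93, 2.18, 1 and 1.49.

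Respiratory genes differed by complex. Of 29 genes of Complex I, which passes electrons from NADH to ubiquinone, 26 were higher and 1 lower, 13 at least 2-fold higher, with a median change of 0.90. Their rise was late: the list median was 0.08 at 120 min and 0.13 at 240 min, and 27 of 29 were highest at 360 min. The largest was nuo21.3b, with levels of 1, 1.67, 2.75 and 6.96. Of 11 cytochrome chain and ATP synthase genes 8 were higher and 3 lower, with a median of 0.64, and none of the 11 was highest at 360 min. Of 8 alternative oxidase and NADH dehydrogenase genes, whose enzymes bypass the proton-pumping complexes, 2 were higher and 6 lower, with a median of -0.77. The external NADH dehydrogenase gene nde-1 had levels of 1, 6.37, 19.9 and 24.7 and nde-3 levels of 1, 1.69, 2.97 and 5.89. The other dehydrogenase genes and all the oxidase genes fell, nde-2 by a change of -0.66 ± 0.0049, the internal dehydrogenase gene ndi-1 by -1.17 ± 0.0092 and aod-1 by -0.59 ± 0.019.

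Genes needed to express and import mitochondrial proteins mostly fell. All 8 genes of mitochondrial gene expression were lower, 7 at least 2-fold, with a median of -2.39. The levels of cyt-19, for a helicase that assists splicing of mitochondrial introns, were 9.52, 7.62, 3.99 and 1, and cyt-18, for the mitochondrial tyrosyl-tRNA synthetase that also acts in splicing, changed by -2.52 ± 0.017. Of 28 import genes 20 were lower and 6 higher, with a median of -0.70. On the uncentred scale 17 were lower and 9 higher. The inner membrane translocase gene tim22 had levels of 5.3, 2.59, 1.53 and 1. The outer membrane receptor gene tom22 had levels of 2.81, 2.44, 1.72 and 1. The 6 higher genes were por, for porin, at 2.38 ± 0.0063, mim1 at 2.31 ± 0.023, tob55, for the pore of the sorting complex, at 2.21 ± 0.026, tom5 at 1.63 ± 0.0095, tom70 at 0.22 ± 0.013 and tim13 at 0.18 ± 0.011. Outer membrane members went both ways, since tom22 and tom40, the receptor and the pore of the entry complex, and tob37, a partner of tob55, were lower, tom40 by a change of -1.03 ± 0.0092 and tob37 by -0.37 ± 0.017.

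**Figure D3:**
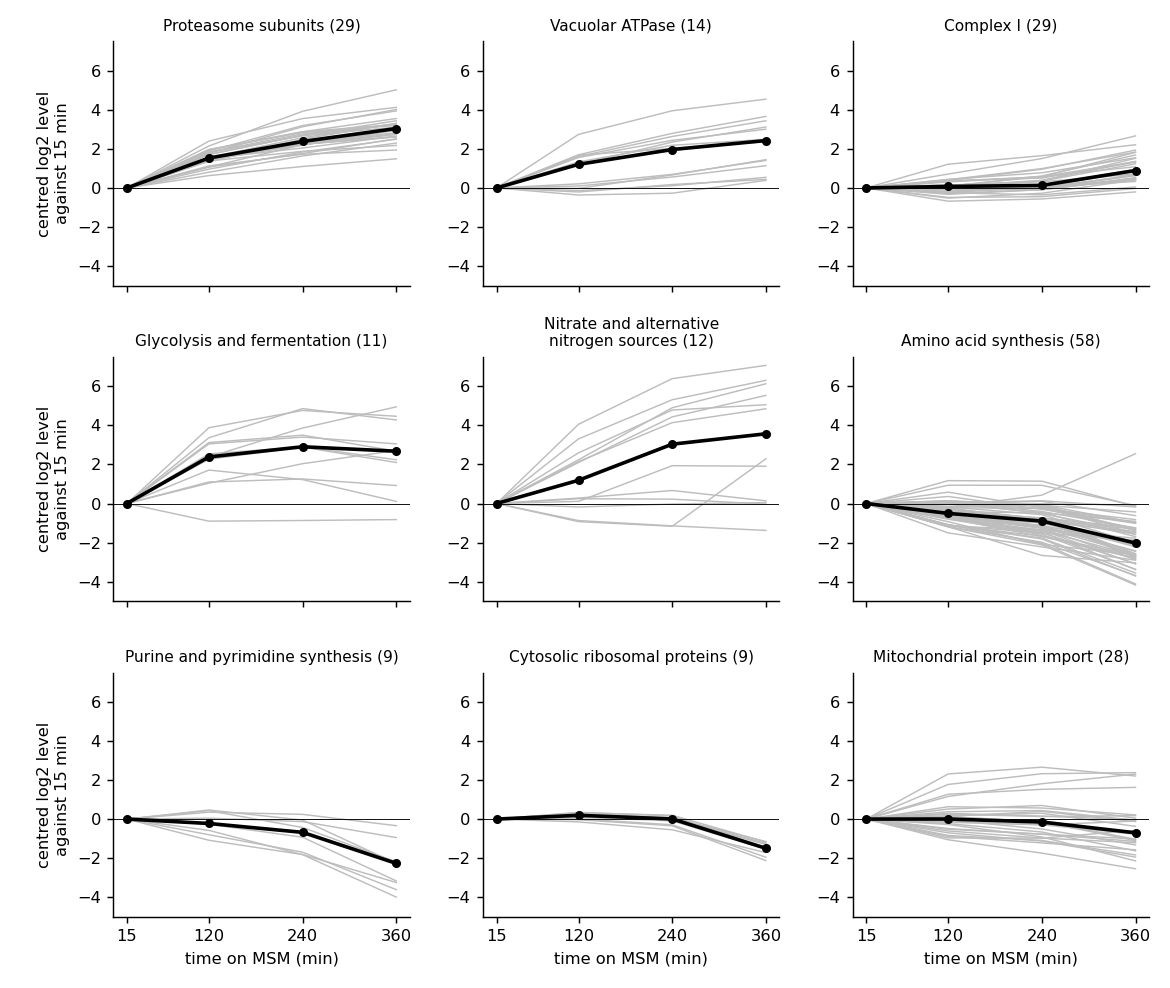
Centred log2 level against 15 min at 120, 240 and 360 min on MSM for the members of 9 lists (grey lines) with their median (black). Proteasome and vacuolar ATPase genes climbed through the course. The glycolysis median stood at 2.38 at 120 min and 2.90 at 240 min. Complex I rose and ribosomal protein genes fell mainly after 240 min.

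Of 12 oxidative stress genes 5 were higher and 7 lower, and genes of 1 enzyme family could part. The catalase genes cat-2 and cat-3 fell, with levels of 16.2, 2.56, 1 and 1.35 and 6.54, 2.52, 2.34 and 1, and all 4 glutathione transferase genes fell. The superoxide dismutase gene sod-1 and egt-1, which directs synthesis of the antioxidant ergothioneine, rose in every interval, by changes of 3.06 ± 0.017 and 3.54 ± 0.038. The catalase gene cat-1 rose late, with levels of 1, 1.57, 1.73 and 4.67. Of 20 genes for folding and glycosylation in the secretory pathway, 17 were higher and 1 lower, with a median of 0.88. The chaperone gene grp78 of the endoplasmic reticulum had levels of 1, 5.2, 18.9 and 15, and erp38, named as a protein of the same compartment, had levels of 1, 3.44, 10.6 and 13.9. The mitochondrial chaperonin gene hsp60 and hsp70-2 fell, by changes of -1.47 ± 0.0073 and -2.42 ± 0.0033, both after a higher level at 120 min. Nox-type NADPH oxidases produce superoxide outside mitochondria, and here nox-1 rose to 5.63 times its 15 min level whereas nox-2 fell by -1.26 ± 0.020.

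Signalling and growth genes were mostly higher. Of 22 genes of the mitogen-activated protein kinase cascades, 19 were higher and 3 lower, 12 at least 2-fold higher, with a median of 1.04. The kinase gene mak-2, needed for communication between germlings, had levels of 1, 3.23, 4.93 and 6.67, and its activator gene mek-2 changed by 1.98 ± 0.015. Of 12 cell fusion genes 11 were higher, led by ham-7 with levels of 1, 1.88, 3.2 and 9.06. The exception was Prm1, whose product acts in merging of plasma membranes, with levels of 4.75, 1.8, 1 and 3.84: it fell until 240 min and had nearly returned by 360 min, to a change of -0.44 ± 0.039 that was not called when every SE was taken as 3 times as large. Of 17 genes for ion pumps, calcium transport and calcium signalling 14 were higher and 2 lower. Among them the vacuolar exchanger gene cax changed by 3.21 ± 0.022, the calcium ATPase gene nca-2 by 2.78 ± 0.019 and the calmodulin gene cmd by 2.26 ± 0.0053. Of 18 genes for G proteins, their receptors and cyclic AMP signalling 12 were higher and 5 lower, with levels of 1.44, 1, 2.66 and 17.1 for gpr-3 and 10.6, 1.4, 1.05 and 1 for gpr-5.

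Of 23 genes for actin, tubulin and motors 12 were higher, 6 lower and 5 not called, with a median of 0.21. The actin gene act had levels of 1, 2.17, 3.03 and 3.66, and fim, for the cross-linker fimbrin, had levels of 1, 2.34, 4.59 and 5.93. All 6 of the genes act, arp2, arp-3, fim, tpm and crn were higher, with changes from 1.14 to 2.44. These 6 were grouped after their values were seen. Lower members included the kinesin gene kin-1 at -0.61 ± 0.0079 and the dynactin gene ro-3 at -0.99 ± 0.017. Of the 9 histone genes, 7 were higher and 1 lower, and the 5 genes of core histones H2A, H2B, H3 and H4 had changes from 1.17 to 2.50. These 5 were likewise grouped after their values were seen. The lower gene was hH3v, at -0.52 ± 0.019.

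Wall genes were mixed: of 45, 24 were higher, 13 lower and 8 not called. The leading ones were chit-1, described above, the wall protein gene acw-9, with levels of 1, 6.23, 15.8 and 31.7, and gh16-1, a member of a family of glucan-cleaving enzymes, with levels of 1, 4.98, 17.2 and 23.9. The wall protein gene acw-6 was late, with levels of 1, 1.44, 1.82 and 13.4. The gene gfa1, whose product makes the first committed precursor of chitin, changed by 2.27 ± 0.014, and the chitin synthase gene chs-3 by 2.13 ± 0.019. Of 22 peroxisome and fatty acid oxidation genes 16 were higher and 5 lower (3 uncentred). The Woronin body gene hex-1, whose product plugs damaged septal pores, had levels of 1, 3.84, 6.12 and 11.4. In sterol synthesis erg-4 changed by 3.48 ± 0.011, and the fatty acid synthase gene cel-2 by -1.64 ± 0.0052.

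Genes expressed in conidia and under clock control went both ways: of 16, 7 were higher and 8 lower, and several had passed their lowest level before 360 min. The hydrophobin gene eas, whose product coats the conidium, had levels of 3.23, 2.93, 1 and 1.06. The conidiation gene con-6 had levels of 2.47, 2.18, 1 and 1.17. The gene ccg-13 fell throughout, with levels of 17, 9.5, 3.25 and 1. Other members of the same list rose after 240 min: ccg-1 had levels of 2.1, 1.65, 1 and 4.06, and ccg-4, which encodes a pheromone precursor, had levels of 1, 1.35, 2.55 and 8.28. Among 24 regulators of conidiation and hyphal development 9 were higher and 12 lower. The developmental regulator gene vad-4 changed by -2.90 ± 0.023, and tah-4 by 3.22 ± 0.097. NCU07801, a gene the study singles out, had an estimated level at 15 and 120 min, with a very wide interval, and was listed at 0 at 240 and 360 min, so it has no change.

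Light and clock genes were mostly lower, with 11 of 17 lower and 5 higher (8 lower uncentred). The clock gene frq had levels of 5.77, 3.21, 1.72 and 1, and frh, for the helicase that partners its product, had levels of 6.91, 4.34, 2.0 and 1. The photolyase gene phr and the cryptochrome gene cry fell by changes of -1.95 ± 0.0094 and -1.58 ± 0.0088, with the fall over by 240 min. Carotenoid genes, which make the orange pigment, moved the other way. Of 6 members 5 were higher and 1 lower, with a median of 1.78, and al-3 and ylo-1 had levels of 1, 2.0, 4.99 and 8.38 and 1, 2.34, 4.69 and 8.28.

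Among 24 genes of mating and sexual development 7 were higher, 10 lower and 7 not called. The 3 genes of the mat A idiomorph, the mating type segment carried by this strain, were detected at 15 min and fell. The levels of matA-1 were 2.5, 3.37, 2.49 and 1, a change of -1.45 ± 0.028, and matA-2 and matA-3 changed by -4.58 ± 0.75 and -4.55 ± 0.53. The last 2 have wide errors, and neither was called when every SE was taken as 3 times as large. The pheromone gene mfa-1 rose after 240 min, with levels of 1.41, 1, 1.21 and 5.61.

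Chromatin, repair and plant wall lists had no common direction. Of 49 chromatin genes 17 were higher and 25 lower, with a median of -0.31. Of 40 replication and repair genes 11 were higher and 23 lower, and the extremes were rad16 at -3.12 ± 0.026 and rad23 at 2.04 ± 0.019. Of 38 tested plant wall degradation genes 16 were higher and 14 lower. These include the xylanase regulator gene xlr-1, with a change of -2.27 ± 0.018, and the cellulase family gene gh6-2, with a change of 2.68 ± 0.11. With SEs multiplied by 3 the repair genes called higher fell to 7 and the plant wall genes called lower to 7.

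Smaller lists were also divided. Of 20 citric acid cycle and pyruvate dehydrogenase genes 12 were higher and 7 lower (4 uncentred), with a median of 0.33. Of 10 NDR kinase and cot genes, known from colonial growth mutants, 7 were higher and 3 lower. Of 13 heat shock and chaperone genes 7 were higher and 6 lower, with hsp90a at 3.03 ± 0.018. Of 9 RNA silencing genes 4 were higher and 1 lower, led by the Dicer gene dcl-1 at 2.19 ± 0.074. Of 7 phosphate acquisition genes 5 were higher and 2 lower, with the phosphatase gene pho-3 at 3.65 ± 0.41. With SEs multiplied by 3, 3 of the 7 were called higher, and pho-3 was no longer called. Of 7 metal uptake genes 3 were higher and 4 lower, with the zinc transporter gene tzn-2 at -2.03 ± 0.029.

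Some genes rose or fell between the end points and came back. The pyruvate kinase gene ace-8 had levels of 1, 3.34, 2.26 and 1.18, and leu-1, for a leucine synthesis enzyme, had levels of 1.01, 2.32, 2.16 and 1. The kinase gene nik-2 had levels of 2.7, 1, 1.55 and 2.64, the wall protein gene ncw-4 levels of 2.74, 1, 1.57 and 2.4 and fkr-3 levels of 3.35, 1, 1.84 and 2.7. In these the value at 360 min alone would miss a move of more than 2-fold at 120 min.

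A further 742 genes had no change computed. Of these 395 were listed at 0 at both times, 134 at 15 min only and 213 at 360 min only. A listed 0 says that no level was estimated, not that the transcript was absent. With a symbol, mlh-2, gh10-2 and gh11-2 were listed at 0 at 15 min only, and sad-2, gh61-10, gh61-11, gh6-1, stk-35, stk-41 and fmf-1 at 360 min only.

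Genes that changed by at least 2-fold were spread over all 7 chromosomes, with shares from 23.3% to 26.2% higher and from 21.7% to 24.8% lower. Coordinates are those of the RefSeq NC12 assembly, the build of the annotation that the table's identifiers match. Runs of at least 4 neighbouring tested genes, all called and at least 2-fold in 1 direction, numbered 51 higher (224 genes) and 34 lower (157 genes). The longest lay on chromosome VII from 3734171 to 3752208 and held 10 genes from NCU05761 to NCU05766, all lower, with changes from -6.48 to -1.13 and a median of -3.70. The gene poi-2 begins at 3759615 on the same chromosome, 1 annotated gene further on. Neighbours NCU05763 and NCU17267 in this run overlap in the annotation, so reads in the shared part may not be assigned to 1 of them with certainty. The mat A genes formed a run of 4 with NCU01957 on chromosome I, from 1857194 to 1867210, and alc-1 lay in a run of 5 higher genes on chromosome II.

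The same times on BM serve to show where the course on MSM differed. On BM, with 8901 genes tested and centring on a median of -0.30, 78% were called in either direction, 39.6% higher and 38.4% lower. A change of at least 2-fold was found for 33.2% of genes on BM, 16.1% higher and 17.1% lower, beside 47.8% on MSM. The median size of the change was 1.06 on MSM and 0.75 on BM. Levels on the media cannot be set side by side, but changes can, and no library is shared between them. The times were set by stages on BM and not matched to stages on MSM, so a difference at the same clock time cannot be told apart from a difference in developmental timing.

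Of 8781 genes tested on both media, the change differed for 75.1% (two-sided z test of the difference, Bonferroni adjusted as above), with 3514 genes higher on MSM (40%) and 3078 lower (35.1%). On the uncentred scale the split was 4490 and 2159, since the median genes of the media differ by 0.43. Directions are those on the centred scale, where small changes can differ in sign from the uncentred ones. Direction was shared by 2349 genes higher and 2299 lower on both media. It was opposite for 838 genes higher on MSM and lower on BM, 103 of them at least 2-fold on each, and for 887 genes lower on MSM and higher on BM, 43 of them at least 2-fold on each.

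On the centred scale the 9 listed ribosomal protein genes took opposite directions on the media between the end points. All 9 were higher on BM, with a median of 0.73 (8 higher and crp-4 lower uncentred), and lower on MSM, and all 9 differences were called, also on the uncentred scale. For crp-4 the change was 0.29 ± 0.0020 on BM and -2.12 ± 0.0041 on MSM. The paper lists most ribosome genes as falling on both media in the last interval. The opposite directions are therefore those of the end points and not of each interval. Mitochondrial import genes were mostly higher on BM, 21 of 28 (17 uncentred). Their change was lower on MSM for 24 of 28 (21 uncentred). All 8 mitochondrial gene expression genes had a lower change on MSM, by a median difference of -1.61. In purine and pyrimidine synthesis 8 of 9 and in amino acid synthesis 52 of 58 genes were lower on MSM relative to BM (8 and 44 uncentred), although 50 of the 58 also fell on BM.

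Other lists rose farther on MSM. The proteasome genes rose on both media, with medians of 3.05 and 1.89, and the change was larger on MSM for 28 of 29. The vacuolar ATPase genes had a larger change on MSM in all 14, and on BM their sectors also lay apart, with V1 changes from 1.22 to 2.72 and V0 changes from -0.64 to 0.48. All 29 Complex I genes had a higher change on MSM, where the BM median was 0.01. All 6 carotenoid genes did too. Nitrogen source genes had a median of 3.57 on MSM and 1.08 on BM. Their change was higher on MSM for 10 of 12 and lower for 1 (12 and 0 uncentred). On BM nit-6 still rose by 5.62 ± 0.046 and nit-3 by 3.16 ± 0.026, whereas 5 of the 12 fell there. Glycolysis had near-equal medians of 2.68 on MSM and 2.63 on BM, but its members went both ways, with the change higher on MSM for 4 of 11 and lower for 3 (8 and 3 uncentred). The difference was 1.07 ± 0.043 for emp-1 and -1.25 ± 0.0078 for ace-8. For pgk the centred difference of 0.04 ± 0.031 was not called, and its 95% interval lay within 0.1 of 0. Uncentred, all 11 differences of this list were called, that of pgk included.

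**Figure D4:**
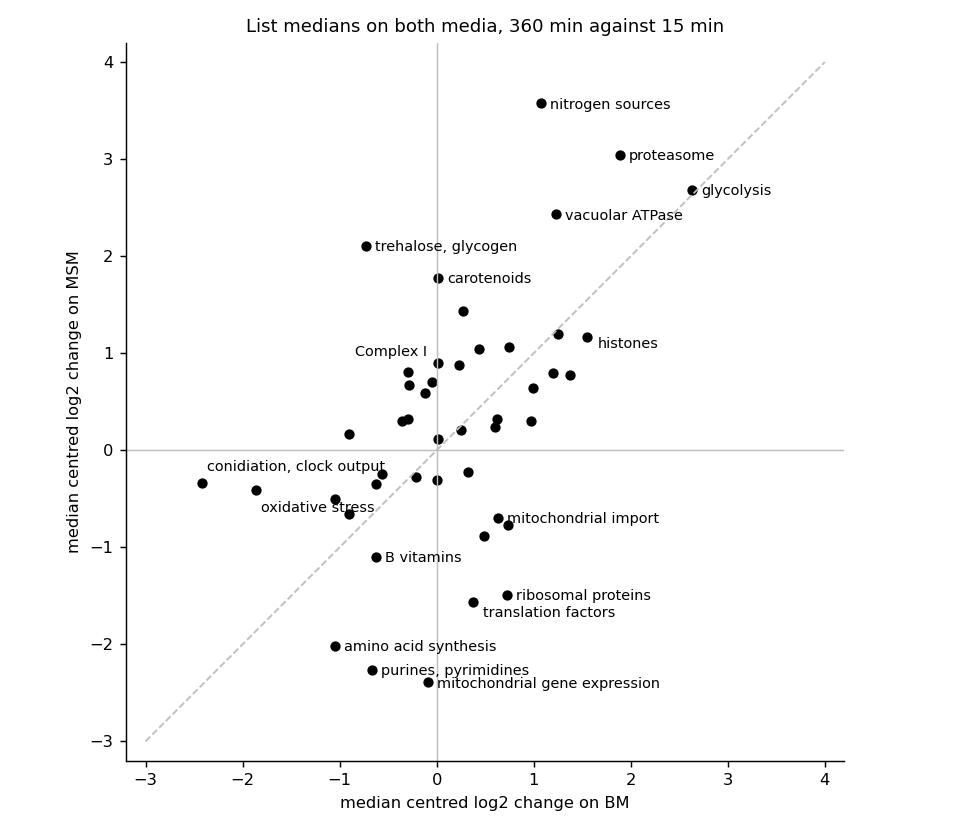
Median centred log2 change from 15 to 360 min on BM (horizontal) and MSM (vertical) for the lists with at least 5 tested members, with the line of equal change dashed. Ribosomal proteins lay at 0.73 on BM and -1.49 on MSM, glycolysis near the line at 2.63 and 2.68.

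Opposite moves with the largest difference included enzymes of small carbon compounds. Formate dehydrogenase, fdh, had levels of 14.6, 1, 3.98 and 101 on MSM, a change of 2.66 ± 0.012, and changed by -5.37 ± 0.057 on BM. It fell sharply by 120 min on MSM and was highest at 360 min. The gene dak-1, for dihydroxyacetone kinase, changed by 3.05 ± 0.044 on MSM and -2.09 ± 0.058 on BM. For fbp-1 the values were 2.59 ± 0.041 and -2.68 ± 0.11, for ilv-5 2.55 ± 0.041 and -2.30 ± 0.084, and for ccg-4 2.92 ± 0.027 and -2.88 ± 0.047. The cyanate lyase gene NCU01258 also belongs here, with 2.29 ± 0.0082 on MSM and -4.50 ± 0.037 on BM.

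Among genes with a symbol, the leading 8 lower on MSM and higher on BM had differences from -3.89 for Prm1 to -3.12 for eth-1. Methionine synthase, met-8, changed by -0.98 ± 0.0052 on MSM and 2.35 ± 0.0040 on BM, and eth-1, for S-adenosylmethionine synthetase, by -1.92 ± 0.0060 and 1.21 ± 0.0033. For dys-1 the values were -3.10 ± 0.035 and 0.46 ± 0.017, and for the purine gene ad-4 -2.26 ± 0.015 and 0.86 ± 0.0065. These 4 genes fell on MSM and rose on BM. Of the 16 genes named for opposite moves, con-10 was nearest to no change on MSM, at 0.19 ± 0.0070, beside -3.62 ± 0.031 on BM.

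**Figure D5:**
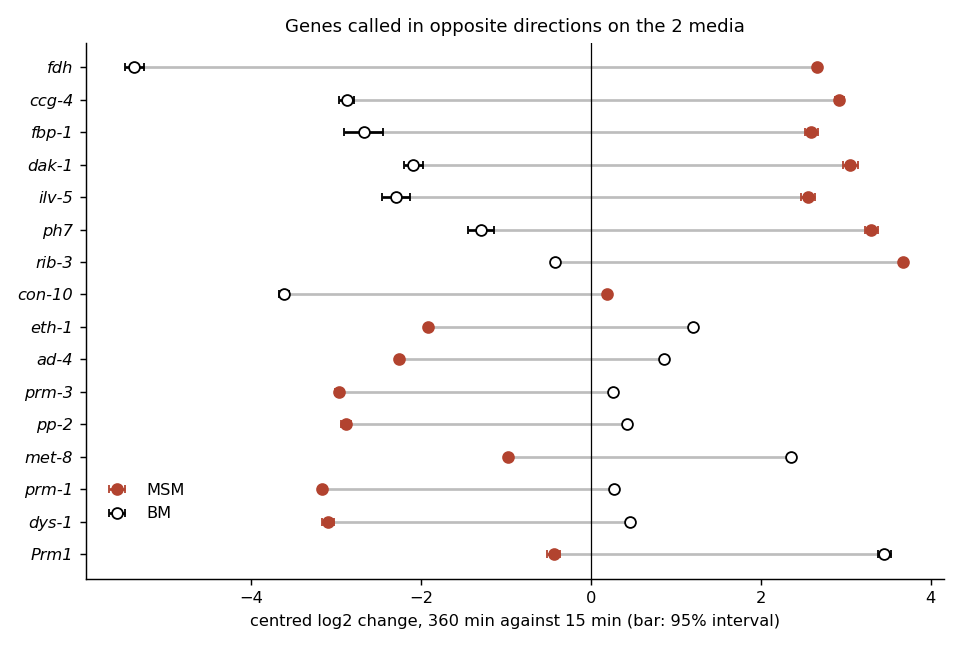
Centred log2 change from 15 to 360 min with its 95% interval on MSM (filled) and BM (open) for the 8 genes in each direction with a symbol, called in opposite directions and with the largest difference. The gene fdh stood at 2.66 on MSM and -5.37 on BM, and Prm1 at -0.44 and 3.45.

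Where the media shared a direction, sizes still differed for single genes. The chit-1 gene rose by 5.69 ± 0.073 on MSM and by 1.42 ± 0.033 on BM, and gsy-1 by 4.99 ± 0.045 and 2.69 ± 0.027. For egt-1 the changes were 3.54 ± 0.038 and 0.22 ± 0.029 and for erp38 3.67 ± 0.024 and 0.22 ± 0.014, where the BM values turn to -0.08 uncentred. Falls that were larger on MSM included aod-3, at -4.71 ± 0.023 beside -0.24 ± 0.046, and frh, at -2.92 ± 0.014 beside -0.63 ± 0.0069. Falls that were smaller on MSM included inv, at -2.13 ± 0.0089 beside -5.81 ± 0.032, hgt-1, at -1.10 ± 0.0036 beside -3.94 ± 0.013, and eas, at -1.74 ± 0.0037 beside -3.48 ± 0.0075. For rpn-4, ccg-13 and app the centred changes on the media lay within 0.2 of each other.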

How the data were processed

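Messenger RNA of 24 libraries was sequenced as paired ends on an Illumina HiSeq instrument from stranded TruSeq libraries. Per the labels and the study's methods, the authors trimmed the reads, aligned them to the N. crassa OR74A genome with TopHat2 2.0.12, kept reads with a single location, tallied them by exon in HTSeq 0.6.1p1, and passed the tallies of the 3 replicates of a time together to LOX, which gave relative levels. The deposited values are ratios to the lowest of a gene's 4 times on the same medium, with the distances to their 95% bounds. Whether the counting used strand is not given in the sources used here. The depth is unknown from these ratios, and no counting interval was computed. The columns of a table carry the numbers 1 to 4 and were taken as the times in their order, which the file does not state otherwise.

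From these, the SE of a log2 level was the width of its log2 interval divided by that of a 95% normal interval with an SE of 1, a change was the log2 ratio of the levels at 360 and 15 min less the median over all genes tested, and a two-sided z test was applied with Bonferroni adjustment over all genes tested. The difference between media was tested in the same way with both SEs combined. Since the replicates had been pooled, their spread was not used. Computation used SciPy 1.17.1, pandas 2.3.3 and numpy 2.4.6 under Python 3.11.15, and matplotlib 3.10.9 drew the figures. The steps were tested on simulated data with the errors of the MSM table: of 50 genes changed 2-fold 80% were called, and of 8788 unchanged genes 0 were. The simulated errors were drawn from the same intervals that the z test uses and held no further spread between replicates. The simulation therefore checks the steps only and cannot say how many calls in the real data are false. Of the 9730 identifiers, 9729 were found in the RefSeq NC12 gene table, which gave symbols for 1118.

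The members and lists were chosen with earlier results of these data known, and the lists were revised after values had been seen, so no list was tested. Named genes were the 15 with a symbol and the 5 of any kind leading in each direction by the bound nearest 0. Members of the lists and genes the study names were added. From genes with a symbol came the 8 in each direction with opposite calls on the media and the largest difference. The 6 largest transient moves each way and genes listed at 0 at 1 of the times were also limited to those with a symbol. Alternatives were no centring, centring on the mean of the middle of the ratios, Benjamini-Hochberg adjustment, SEs multiplied by 3, a limit on the SE, no demand on lower bounds, and genes with all 4 levels only. Some results are not reported here.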

Additional observations from a re-analysis of the deposited data

Results flagged for a closer look

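The 16 genes below were called in opposite directions on MSM and BM, and the difference between the changes passed its own test (two-sided z test, Bonferroni adjusted over the genes tested on both media). They were taken from genes with a symbol for the size of that difference, ranked by its bound nearest 0, which is therefore a description. Genes without a symbol were not eligible, such as NCU01258 with a difference of 6.80. Changes higher on MSM were found for fdh, with a log2 difference of 8.03, ccg-4 (5.80), fbp-1 (5.27), dak-1 (5.14), ilv-5 (4.85), ph7 (4.59), rib-3 (4.10) and con-10 (3.81). The levels of ph7 on MSM were 1, 5.63, 8.14 and 10.8, and those of dak-1 were 1, 1.62, 3.22 and 9.08. Both were lowest at 15 min and highest at 360 min on MSM.

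Changes lower on MSM were found for Prm1, with a log2 difference of -3.89, dys-1 (-3.56), prm-1 (-3.43), met-8 (-3.33), pp-2 (-3.31), prm-3 (-3.23), ad-4 (-3.12) and eth-1 (-3.12). The levels of met-8 on MSM were 1.8, 2.76, 1.51 and 1 and those of ad-4 were 4.39, 6.18, 4.1 and 1, each with a peak at 120 min. The levels of prm-1 were 8.19, 6.0, 2.63 and 1 and those of prm-3 were 7.16, 4.69, 2.34 and 1, falling at each step. On BM prm-1 and prm-3 were called higher only on the centred scale, and their uncentred changes there were -0.03 and -0.04. Replicates were pooled by the authors, so no single library could be examined in any of these genes.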

How the results depend on the processing

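Under the 7 alternatives every count of calls over all genes tested stayed within 1.5 times its value, which was not so for every count within a list. Genes higher on MSM ranged from 2987 with SEs multiplied by 3 to 4104 with Benjamini-Hochberg adjustment, and genes lower from 2859 to 4043. Without centring 4032 were higher and 3357 lower, 256 calls were lost and 18 changed direction. With SEs multiplied by 3, 1532 of 7378 calls were lost and 0 changed direction. Genes at least 2-fold higher ranged from 1943 to 2407 and lower from 1831 to 2268. Genes whose change was higher on MSM than on BM ranged from 2458 to 4490 and lower from 2159 to 3588. Dropping the demand on lower bounds changed nothing, since 0 genes had a bound at or below 0. No list median changed sign. Without centring all 47 list medians moved by at least the median SE of their members, since centring shifts every change by the same 0.13. Of 94 counts of list members, 4 without centring and 8 with larger SEs moved by over 1.5 times. No paired analysis was possible because the deposited values pool the replicates, and for the same reason leaving out a replicate was not possible. Depth limits cannot be given, since the ratios carry none; precision is limited most for genes with wide intervals such as matA-2 and matA-3.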
